A study of Mus musculus with 8 samples.

Results

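The keratins of the first molar were followed in mice with an ablated Wdr72 gene (Wdr72-/-) and in wild-type mice. The members were the protein-coding genes of the deposited table whose symbol is Krt followed by a number and at most 1 letter. There were 53 such genes among 54532 genes, of which 22046 were protein-coding, and 1 further keratin-named gene, Krt74, was left out because the table lists it as a pseudogene. RNA was sequenced in 4 wild-type libraries (WT 2, 3, 4 and 5) and in 4 libraries from Wdr72-/- mice (KO 1, 3, 4 and 5), both on the C57BL/6 strain. The tissue was the first molar of pups after removal of the pulp, homogenised whole, and the labels call the cells epithelially derived ameloblasts. The age is given as postnatal day 12 in one label field and as day 13 in the dissection protocol. The Wdr72-/- line was bought from a mouse repository, and the labels state neither the deleted part of the gene nor whether pups were pooled. The p-values therefore measure only the spread between these libraries, which may be technical.

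Keratins are the intermediate filament proteins of epithelia. Each filament is built from pairs of an acidic type I and a basic type II keratin, and the pair that a cell makes follows its kind of epithelium and its state of differentiation. Krt8 and Krt18 are the pair of simple, single-layered epithelia. Krt5 and Krt14 mark the basal layer of stratified epithelia and also the dental epithelium, which descends from the oral epithelium. Krt1 and Krt10 replace them above the basal layer of skin, and Krt4 and Krt13 do so in the lining of the mouth. Krt6a, Krt6b, Krt16 and Krt17 are induced by wounding and are made constitutively in parts of the oral mucosa, the nail and the hair follicle.

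The libraries held 17084475 to 21887462 counted reads. Wdr72 itself lay between 173 and 327 CPM (counts scaled to the library total with its TMM factor) in WT and at 102, 37.8, 24.9 and 15.8 CPM in KO 1, 3, 4 and 5, with every KO value under the WT values (log2 fold change -2.43, SE 0.47, edgeR adjusted p = 0.0803). KO 5 correlated least with the other libraries (mean Pearson r of log2 CPM across genes 0.965, against 0.980 to 0.983). Xist, which is transcribed from the inactive X chromosome, was present in every library. It lay at 803, 839, 251 and 658 CPM in WT 2, 3, 4 and 5 and at 249, 191, 356 and 177 CPM in KO 1, 3, 4 and 5, so WT 4 stood among the KO libraries. Over all genes, 5 of 16205 tested changed, 2 higher and 3 lower in KO. Ameloblast markers were abundant in sum in both groups. Ambn, an enamel matrix protein, lay between 25069 and 54293 CPM. Together 14 such markers summed to 54354 to 98958 CPM in the WT libraries and 60641 to 82012 CPM in the KO libraries. Col1a1, a collagen of bone and dentin, lay at 16449 to 37326 CPM.

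Keratin reads made up 1.81%, 1.90%, 1.33% and 1.62% of the counted reads in libraries WT 2, 3, 4 and 5. The shares were 1.39%, 1.26%, 1.33% and 2.11% in KO 1, 3, 4 and 5. The 95% Wilson intervals of these shares reached at most 0.00632 percentage points to either side, and they cover counting error only. The groups overlapped, at 1.66% ± 0.249 in WT and 1.52% ± 0.396 in KO (SD, n = 4 each). Krt5 and Krt14 alone held 88.6% to 92.2% of the keratin reads. Of the 53 members, 29 passed the filter on low counts and were tested, and these held 99.981% of all keratin reads. The other 24 had between 1 and 77 reads over the 8 libraries together, and no member was without a read.

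**Figure D1:**
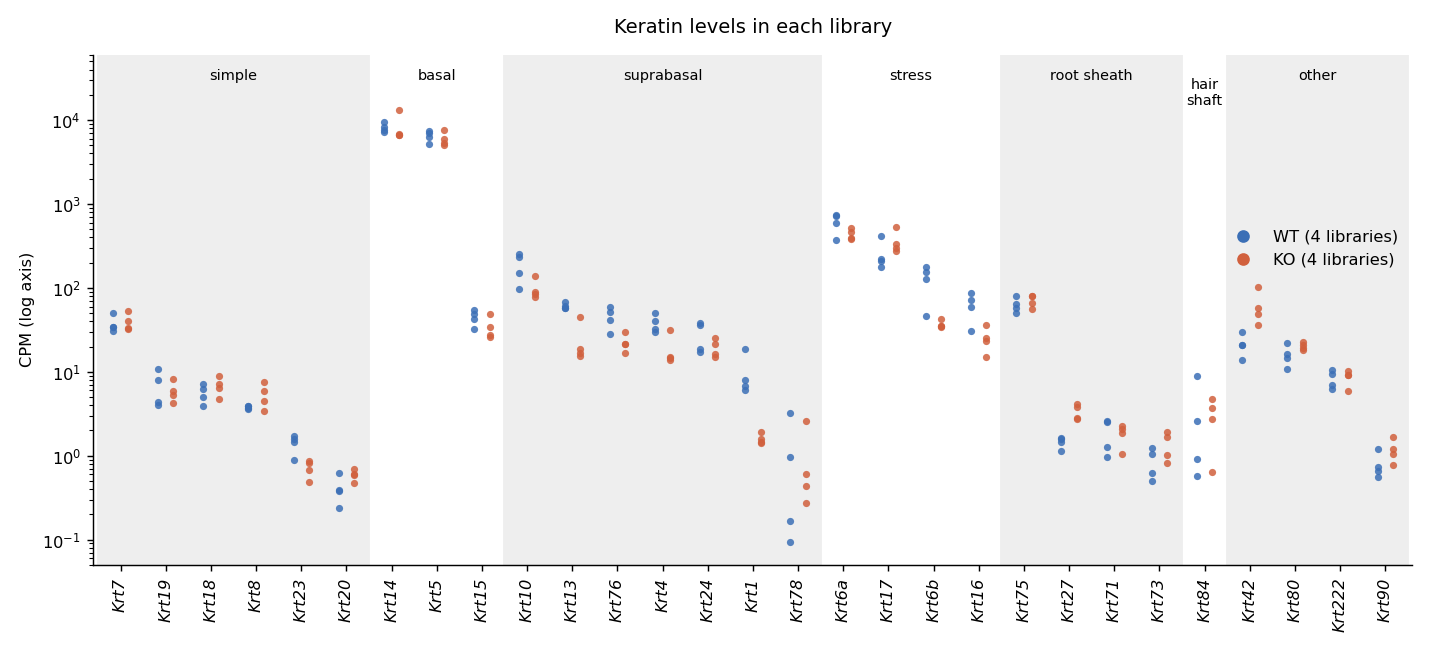
Level of the 29 tested keratins in each library, in CPM on a log axis, 1 point per library, with WT in blue and KO in orange and grey bands separating the classes. Krt14 and Krt5 lie at or above 4991 CPM in every library, while for Krt1, Krt6b and Krt13 all WT points lie above the KO points.

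Krt14 (ENSMUSG00000045545, chromosome 11 from 100203162 to 100207548, GRCm38) was the most abundant keratin and ranked 9th of all genes by mean CPM. It lay at 8339, 9555, 7242 and 7717 CPM in WT 2, 3, 4 and 5 and at 6816, 6565, 6695 and 13265 CPM in KO 1, 3, 4 and 5. KO 1, 3 and 4 were thus below the WT libraries and KO 5 was above them all, so the groups overlapped (log2 fold change 0.02, SE 0.24, adjusted p = 0.973). Krt5 (chromosome 15, 101707070 to 101712898), its type II partner, ranked 11th and lay at 7003, 7477, 5187 and 6371 CPM in the WT libraries and at 5972, 4991, 5353 and 7580 CPM in the KO libraries. Its groups overlapped as well (log2 fold change -0.12, SE 0.19, adjusted p = 0.763). Krt15, a further basal keratin, was at 44.5 ± 9.32 CPM in WT and 34.1 ± 10.4 in KO (SD, n = 4 each, log2 fold change -0.39, SE 0.21).

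Levels of different genes were compared per kilobase of gene length. On that scale Krt14 stood at 4672 ± 569 CPM per kilobase in WT and Krt5 at 2963 ± 451 (SD, n = 4). Krt6a followed at 251 ± 70.6 and Krt17 at 166 ± 70.7, whose spreads overlapped. Krt10 stood at 86.8 ± 33.7 and Krt6b at 56.7 ± 25.7, and their spreads overlapped as well. Krt16 at 39.5 ± 15.1, Krt13 at 33.6 ± 2.38 and Krt15 at 25.2 ± 5.27 CPM per kilobase came next. In KO the first 5 were the same genes, with Krt17 at 233 ± 76.5 above Krt6a at 182 ± 25.9, and Krt42 stood at 34.8 ± 16.2 CPM per kilobase, a place that Krt6b held in WT, while Krt6b stood at 16.5 ± 1.84, Krt16 at 15.9 ± 5.52 and Krt13 at 13.2 ± 7.85.

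Between the groups, 1 of 29 tested keratins changed at an adjusted p of 0.05 over all genes, Krt1, which fell, and 0 rose, by edgeR's quasi-likelihood test. Over all tested genes 0.0185% were called lower and 0.0123% higher. At an unadjusted p of 0.05, 9 keratins were lower and 3 higher, against a background of 6.98% of all genes lower and 8.7% higher. In 4 keratins (Krt1, Krt6b, Krt13 and Krt23) each KO library was below each WT library, and in 2 (Krt27 and Krt42) each was above, against 5.44% and 5.5% of all genes. For each of these 6 genes the exact permutation test over the 70 arrangements of the libraries gave p = 0.0286, two-sided, the smallest it can give. The full separation of the groups fixes this p, so it adds nothing to the separation. Other tests called more genes: DESeq2 called 7 keratins lower and 2 higher, where it called 1.05% and 1.88% of all genes, and limma voom with quality weights called 8 lower and 2 higher, where it called 2.28% and 4.34%. The keratins that DESeq2 called were Krt1, Krt4, Krt6b, Krt10, Krt13, Krt16 and Krt76, all lower, and Krt27 and Krt42, both higher, and voom added Krt6a.

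**Figure D2:**
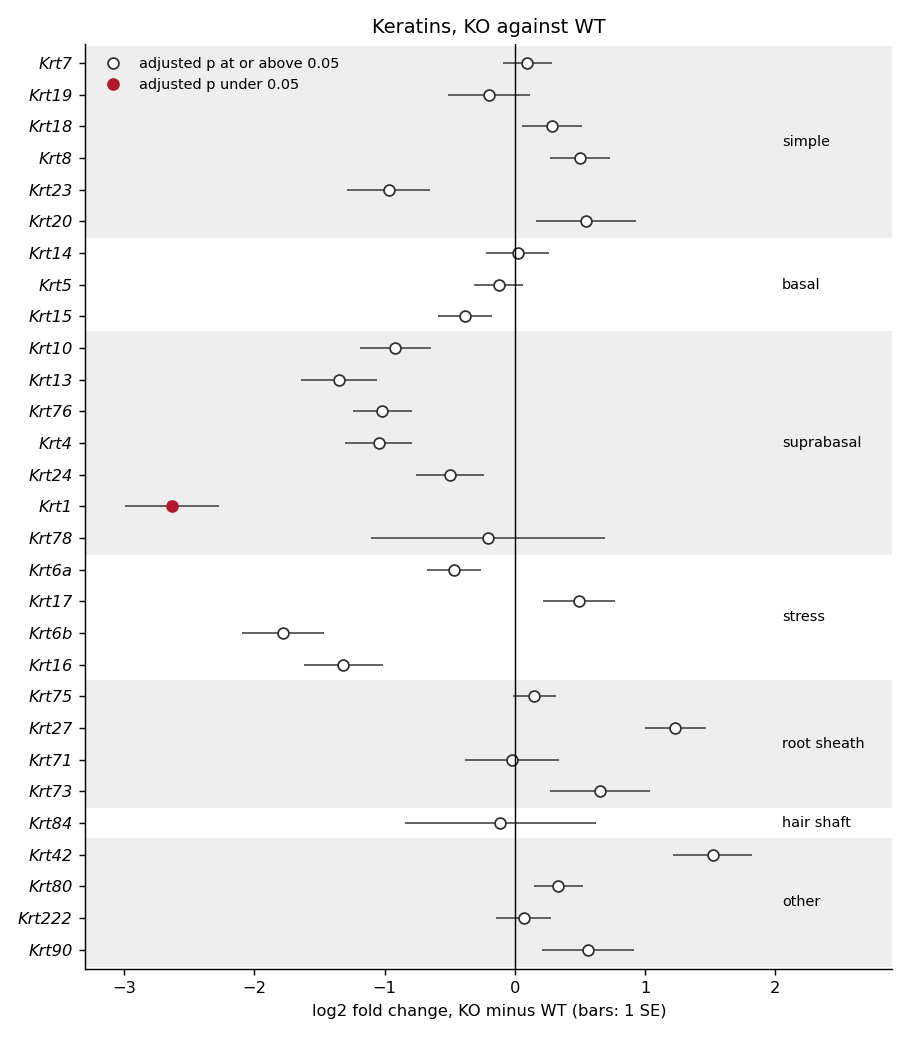
Log2 fold change of each tested keratin, KO minus WT, from edgeR, with bars of 1 SE and a filled point for an adjusted p under 0.05. All 7 suprabasal keratins lie left of 0, and Krt1, at -2.64, is the filled point.

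The median log2 fold change of the tested keratins was -0.11, beside 0.02 over all genes tested, and 16 were lower and 13 higher. The medians of the classes are given as descriptions, with no test. The 7 tested suprabasal keratins had a median of -1.02 and were all lower, and the 4 stress keratins had a median of -0.89 with 3 lower. The 3 basal keratins had a median of -0.12. The 6 simple keratins had a median of 0.19 with 4 higher, the 4 tested root sheath keratins of 0.40 with 3 higher, and the 4 tested keratins of no such class of 0.45 with 4 higher. Of the 15 hair shaft keratins 1 was tested, Krt84, at -0.11. These counts cover only members above the low-count filter.

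Krt1 (ENSMUSG00000046834, chromosome 15, 101845426 to 101850794), the type II keratin of the differentiating epidermis, lay at 8.08, 6.01, 18.9 and 6.84 CPM in the WT libraries and at 1.59, 1.93, 1.47 and 1.40 CPM in the KO libraries. WT 4 was the highest and each KO library was below the lowest WT library. The mean was 9.96 ± 6.02 CPM in the WT libraries and 1.60 ± 0.232 CPM in the KO libraries (log2 fold change -2.64, SE 0.36, adjusted p = 0.0396). Without WT 4 the log2 fold change was -2.13 (adjusted p = 0.0065). The adjusted p was above 0.05 without WT 2 (0.110), WT 3 (0.0826), KO 1 (0.105), KO 3 (0.0729), KO 4 (0.135) or KO 5 (0.0796), with log2 fold changes between -2.82 and -2.58 in these fits. Over all 20 alternatives the adjusted p of Krt1 ran from 1.4e-09 to 0.361. In bulk samples, fewer cells that make Krt1 and less Krt1 RNA per cell cannot be told apart.

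Krt10 (chromosome 11, 99385254 to 99389364), the type I partner of Krt1, was the most abundant suprabasal keratin and lay at 251, 233, 98.4 and 152 CPM in the WT libraries and at 84.7, 77.6, 89.3 and 137 CPM in the KO libraries. WT 4 was below KO 5, so the groups overlapped (log2 fold change -0.92, SE 0.27, adjusted p = 0.171). The ratio of Krt1 to Krt10 per kilobase lay between 0.0123 and 0.0919 in WT and between 0.0049 and 0.0119 in KO, so Krt1 was the smaller part of the pair throughout, and the 2 ranges did not overlap.

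Krt13 (chromosome 11, 100117327 to 100121566), the type I keratin of the oral lining, lay at 57.6, 58.3, 67.1 and 61.4 CPM in the WT libraries and at 15.3, 18.7, 16.7 and 45.3 CPM in the KO libraries. WT libraries agreed closely, and KO 5 stood well above the other KO libraries but below each WT library. The log2 fold change was -1.35 (SE 0.29, adjusted p = 0.100), and without KO 5 it was -1.85 (adjusted p = 1.9e-06, with a range from 1.9e-06 to 0.952 over all alternatives). Krt4 (chromosome 15, 101918535 to 101924735), its type II partner, lay at 32.7, 30.0, 50.1 and 40.9 CPM in the WT libraries and at 14.9, 14.8, 13.7 and 31.1 CPM in the KO libraries. Here too KO 5 was the high KO library, and it was above WT 3, so the groups overlapped (log2 fold change -1.05, SE 0.26, adjusted p = 0.120). Krt4 and Krt13 had a ratio per kilobase of 0.440 to 0.638 in WT and 0.586 to 0.832 in KO, and these ranges overlapped.

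Krt76 (chromosome 15, 101884351 to 101892920), a type II keratin of the hard palate and gingiva, lay at 41.1, 52.3, 28.5 and 58.5 CPM in the WT libraries and at 21.3, 16.7, 21.2 and 30.0 CPM in the KO libraries. The highest KO library, KO 5, was just above the lowest WT library, WT 4 (log2 fold change -1.02, SE 0.22, adjusted p = 0.101). The other tested suprabasal keratins, Krt24 (log2 fold change -0.50, SE 0.26) and Krt78 (-0.21, SE 0.90), had overlapping groups and are named here after their values were seen. Krt2, Krt9, Krt12, Krt77 and Krt79, which belong to skin, palm and sole, and cornea among other sites, had 5 to 38 reads in all and were not tested. For 2 of these each KO library was below each WT library in CPM, but not in reads. Krt79 lay at 0.239 to 0.380 CPM in WT and 0.109 to 0.229 in KO, with 5 reads in each of WT 3, WT 5 and KO 3. Krt9 lay at 0.113 to 0.221 CPM in WT and 0 to 0.0921 in KO, with 2 reads in both WT 5 and KO 4. The share of all untested genes so ordered was not computed, and no direction can be read from these counts. Krt12 is uncertain, as an antisense gene over it had 78 reads against 15.

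The suprabasal class summed to 410, 421, 300 and 339 CPM in WT 2, 3, 4 and 5 and to 160, 145, 160 and 273 CPM in KO 1, 3, 4 and 5. The groups did not overlap. As a share of all keratin reads per kilobase the class took 2.24%, 2.09%, 2.03% and 1.98% in WT and 1.08%, 1.07%, 1.12% and 1.11% in KO. KO 5, which had the highest suprabasal sum of the KO libraries, had a share within their range. The basal class made up most of the denominator, and KO 5 had the highest Krt14 of all libraries, at 13265 CPM. Krt10, whose own groups overlapped, was the largest member of the suprabasal class. The stress class took 4.78% to 7.71% in WT and 5.06% to 6.02% in KO, the basal class 89.6% to 92.4% and 91.8% to 92.8%, and the simple class 0.179% to 0.208% and 0.191% to 0.255%, all of which overlapped. The keratins outside the classes took 0.143% to 0.310% in WT and 0.357% to 0.603% in KO, without overlap. Krt42 made up most of this, at 12.1 CPM per kilobase in WT and 34.8 in KO. Krt80, the next, stood at 2.51 and 3.15, and Krt80, Krt222 and Krt90 had overlapping groups. These shares are descriptions, with no test.

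**Figure D3:**
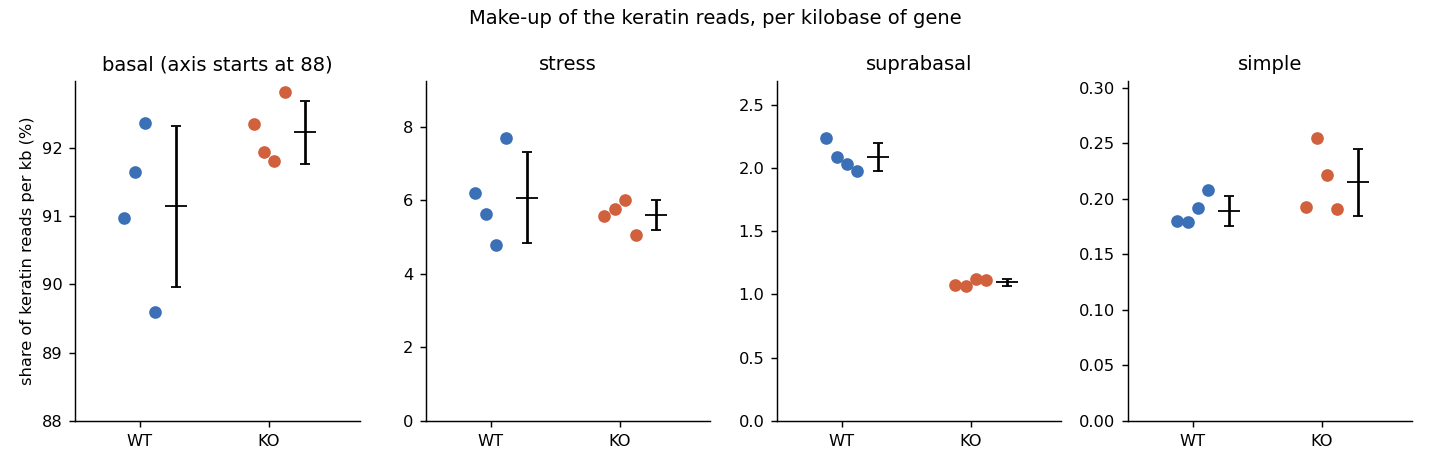
Share of 4 classes in the keratin reads per kilobase, in percent, 1 point per library in the order of their numbers, with the mean and SD as bars. The basal axis starts at 88, and the suprabasal shares of the 4 KO libraries, 1.07% to 1.12%, lie below those of the 4 WT libraries, 1.98% to 2.24%.

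Markers of oral keratinocytes other than keratins were also mostly lower. Of 23 such genes 18 were tested, 17 of them lower and 1 higher in KO. Their median log2 change was -0.48, with 11 lower at an unadjusted p of 0.05, beside 6.98% of all genes, and 8 with each KO library below each WT library, beside 5.44%. DESeq2 called 6 lower and voom 10, where they called 1.05% and 2.28% of all genes. Their summed level was 377 to 603 CPM in the WT libraries and 320 to 425 CPM in the KO libraries. Spink5, a protease inhibitor of stratified epithelia, passed the threshold, and fell: WT libraries held 3.61 to 6.56 CPM and KO libraries 0.728 to 1.29 CPM (log2 change -2.33, SE 0.27, adjusted p = 0.0273). Krtdap, a secreted protein of differentiating keratinocytes, lay at 10.5, 7.49, 4.08 and 4.75 CPM in the WT libraries and at 1.64, 1.06, 1.15 and 2.29 CPM in the KO libraries. Of the late markers, Sprr2d had no read, Sprr1b was read in WT 2 and WT 5 only, and Ivl and Flg were under 0.5 CPM in every library. Lor, Sprr3, Tgm1, Cnfn and Crct1 were read in every library and overlapped between the groups. Lor lay at 1.98 to 10.1 CPM in WT and 2.02 to 9.72 in KO. Sprr3 had a log2 change of -0.12 (SE 0.35) and Tgm1 of 0.03 (SE 0.16). Sprr1a and Tgm3 were also read in every library, and each KO library was below each WT library. Sprr1a lay at 0.997 to 2.54 CPM in WT and 0.459 to 0.780 in KO. Tgm3 lay at 0.961 to 2.29 CPM in WT and 0.552 to 0.688 in KO. The part of oral keratinocytes in the keratin differences was not tested.

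Of 14 ameloblast markers 6 were higher and 8 lower, at a median log2 change of -0.07, and 0 passed in edgeR. For Odaph each KO library was above each WT library and for Slc26a7 each was below, beside 5.5% and 5.44% of all genes. DESeq2 called Odaph higher, where it called 1.88% of all genes higher. To this voom added Enam, which was higher, and Itgb6, which was lower, where it called 4.34% higher and 2.28% lower. Of 13 tested general epithelial markers, 7 were higher and 6 lower, at a median log2 change of 0.0015 and with sums of 1836 to 3283 CPM in the WT libraries and 2431 to 2929 CPM in the KO libraries. For 2 of them, Epcam, an epithelial adhesion molecule, and Cldn4, a claudin, each KO library was above each WT library, beside 5.5% of all genes. Epcam was at 59.3 ± 0.991 CPM in WT and 85.4 ± 19.1 in KO, and Cldn4 at 3.35 ± 0.938 and 8.45 ± 3.97 (SD, n = 4 each). Neither passed in edgeR (adjusted p = 0.146 and 0.116). DESeq2 and voom called both higher, where they called 1.88% and 4.34% of all genes higher. Mesenchymal markers were higher in KO in 13 of 14 genes, with a median of 0.51. Of these, 10 were higher at an unadjusted p of 0.05, beside 8.7% of all genes, and in 6 each KO library was above each WT library, beside 5.5%. DESeq2 called 6 higher and voom 11, where they called 1.88% and 4.34% of all genes. Their sums were 42255 to 81392 CPM in the WT libraries and 56382 to 86778 CPM in the KO libraries. The part of mesenchymal RNA in the keratin differences was not tested either.

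Promoter sequences were at hand for 36 of the 53 keratins, from RefSeq (GRCm38.p6), as 37 windows of 300 bases. Krt10, Krt13 and Krt76 are shown because they are the suprabasal keratins with a window whose DESeq2 call was lower. Each sequence is the 200 bases before the gene start, on the minus strand, 5′ to 3′, with TATAAA and the AP-1 motif TGANTCA in capitals.
Krt10, chr11:99389365-99389564: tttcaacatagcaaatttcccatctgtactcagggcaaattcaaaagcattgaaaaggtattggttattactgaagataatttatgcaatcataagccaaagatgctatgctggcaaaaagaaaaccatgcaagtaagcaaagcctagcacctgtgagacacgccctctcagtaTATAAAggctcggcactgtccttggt
Krt13, chr11:100121567-100121766: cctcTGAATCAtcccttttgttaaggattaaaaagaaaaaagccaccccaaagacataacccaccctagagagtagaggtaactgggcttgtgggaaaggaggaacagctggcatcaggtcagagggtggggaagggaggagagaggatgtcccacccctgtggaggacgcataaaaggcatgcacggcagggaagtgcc
Krt76, chr15:101892921-101893120: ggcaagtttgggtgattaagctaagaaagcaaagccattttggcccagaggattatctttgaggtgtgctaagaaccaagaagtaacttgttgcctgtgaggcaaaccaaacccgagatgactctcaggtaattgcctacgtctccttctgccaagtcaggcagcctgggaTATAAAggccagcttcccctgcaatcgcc

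The first base of TATAAA stood 26 bases before the gene start of Krt10 and 29 before that of Krt76. TATAAA was searched on both strands, overlapping matches counted, and 19 of the 37 keratin windows held it (51.4%), beside 13.6% of the 32817 windows of all genes. On the forward strand and between 20 and 35 bases before the start it stood in 12 keratin windows (32.4%), beside 1.84% of all windows. By class these were 3 of 11 suprabasal, 4 of 8 root sheath, 4 of 9 hair shaft and 1 of 5 simple windows, and 0 of 2 basal windows. TGANTCA, which reads the same on both strands apart from its middle base, was in 2 of 37 keratin windows (5.41%), both of them of Krt13, and in 7.81% of all windows. CACCC, a core of sites bound by Krüppel-like factors, was in 83.8% of keratin windows and 57.5% of all windows, CCAAT in 40.5% and 37.4%, and the AP-2 motif GCCNNNGGC in 18.9% and 16.6%. All were searched on both strands, and a match is a match of letters only.

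Krt6b (ENSMUSG00000023041, chromosome 15, 101676023 to 101680287), a type II stress keratin, lay at 178, 154, 46.0 and 128 CPM in the WT libraries and at 35.1, 33.8, 35.6 and 42.9 CPM in the KO libraries. WT 4 was close to the KO libraries, and the other 3 WT libraries were far above them (log2 fold change -1.78, SE 0.31, adjusted p = 0.0773). Krt16 (chromosome 11, 100246091 to 100248902) is a type I stress keratin. It lay at 71.8, 58.5, 30.7 and 86.2 CPM in the WT libraries and at 25.2, 14.8, 23.4 and 35.9 CPM in the KO libraries. WT 4 was below KO 5, so the groups overlapped (log2 fold change -1.32, SE 0.30, adjusted p = 0.102).

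Krt6a (chromosome 15, 101689910 to 101694307), the neighbour and near copy of Krt6b, lay at 729, 733, 369 and 596 CPM in the WT libraries and at 462, 380, 397 and 517 CPM in the KO libraries. WT 4 was the lowest of all 8 libraries, and the groups overlapped (log2 fold change -0.47, SE 0.21, adjusted p = 0.306). Krt17 (chromosome 11, 100256217 to 100261029) was the stress keratin that was not lower, at 179, 208, 224 and 419 CPM in the WT libraries and 274, 303, 334 and 536 CPM in the KO libraries (log2 fold change 0.49, SE 0.28, adjusted p = 0.395). WT 5 was above 3 of the KO libraries.

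The counts of Krt6a and Krt6b are uncertain because a read can match both. Their coding sequences, taken from GENCODE M21 transcripts, were identical at 1622 of 1659 aligned bases (97.77%), with a longest identical run of 280 bases. Of the stretches of 50 bases in Krt6b transcripts, 44.46% were also in Krt6a, against 12.4% of those of Krt16 that were in Krt14. The 60 coding bases where the pair differs most are shown, because reads over such positions differ between the genes. They are coding bases 817 to 876 of each gene, counted from the first base of the start codon, with the 10 differing bases in capitals.
Krt6a: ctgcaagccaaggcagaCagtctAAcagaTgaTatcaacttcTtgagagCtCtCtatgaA
Krt6b: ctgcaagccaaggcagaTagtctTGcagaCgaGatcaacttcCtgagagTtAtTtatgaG

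Some ratios within the stress class separated the groups, while other pairs of the class were not compared. The share of all gene pairs whose ratios separate in this way was not computed. Krt6b against Krt6a per kilobase was 0.264, 0.228, 0.135 and 0.233 in WT and 0.0821, 0.0961, 0.0971 and 0.0898 in KO, with no overlap. Krt6a against Krt16 was 4.47 to 8.11 in WT and 9.32 to 16.6 in KO, and Krt6b against Krt17 was 0.143 to 0.691 in WT and 0.0556 to 0.0888 in KO, again with no overlap. The corresponding ratio of the basal pair, Krt5 against Krt14, was 0.633 ± 0.0444 in WT and 0.602 ± 0.104 in KO (SD, n = 4 each) and overlapped.

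Krt42 (ENSMUSG00000053654, chromosome 11, 100262882 to 100269871), a type I keratin beside Krt17 whose human counterpart is a pseudogene, was the keratin with the highest positive log2 fold change. It lay at 13.7, 20.9, 30.0 and 20.8 CPM in the WT libraries and at 36.0, 58.3, 49.03 and 102 CPM in the KO libraries. Each KO library was above each WT library, and KO 5 was the highest (log2 fold change 1.52, SE 0.30, adjusted p = 0.0837). The coding sequences of Krt42 and Krt17 were identical at 79.86% of aligned bases, and 0.266% of the 50-base stretches of Krt17 were shared with Krt42. Krt42 against Krt17 per kilobase was 0.0436 to 0.118 in WT and 0.116 to 0.170 in KO, where WT 4 at 0.118 and KO 1 at 0.116 were the libraries that overlapped.

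Krt27 (ENSMUSG00000017588, chromosome 11, 99345565 to 99351104), a type I keratin of the inner root sheath of the hair, was rare. It lay at 1.44, 1.57, 1.14 and 1.64 CPM in the WT libraries and at 2.84, 3.85, 2.76 and 4.16 CPM in the KO libraries, with no overlap (log2 fold change 1.23, SE 0.23, adjusted p = 0.0789). Of its 50-base stretches 11.13% were shared with Krt25, which had 14 reads in all. Krt71 and Krt73, type II keratins of the same sheath, stood at log2 fold changes of -0.02 (SE 0.36) and 0.66 (SE 0.38), with overlapping groups. Krt75, a type II keratin of the companion layer of the hair follicle and also of the enamel organ, was the abundant member of this class, at 58.3, 81.1, 64.2 and 50.02 CPM in the WT libraries and 79.3, 66.7, 55.6 and 80.2 CPM in the KO libraries. Its groups overlapped (log2 fold change 0.15, SE 0.16, adjusted p = 0.653).

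Hair shaft keratins, which make the hard keratin of hair and nail, were near 0. Krt84, the tested one, lay at 2.60, 0.907, 0.570 and 8.82 CPM in the WT libraries and at 4.76, 0.642, 2.76 and 3.69 CPM in the KO libraries. The other 14 summed to 37, 13, 14 and 101 reads in the WT libraries and to 73, 17, 31 and 58 reads in the KO libraries. WT 5 held the most reads of both, and no direction can be read from either. Of 13 hair follicle markers other than keratins 5 were tested, 2 higher and 3 lower, with sums of 37.8 to 53.7 CPM in the WT libraries and 36.4 to 43.1 CPM in the KO libraries, and Krtap16-1 had no read.

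Simple epithelial keratins were low in this tissue. Krt8 lay at 3.88, 3.58, 3.89 and 3.73 CPM in the WT libraries and at 3.45, 5.97, 4.47 and 7.49 CPM in the KO libraries. The WT libraries were close together and KO 1 was below them (log2 fold change 0.50, SE 0.23, adjusted p = 0.316). Krt18, its type I partner, had a log2 fold change of 0.28 (SE 0.23, adjusted p = 0.550), and the ratio of Krt8 to Krt18 overlapped between the groups. Krt7, a type II keratin of ductal and glandular epithelia, was the most abundant of the class by CPM, at 37.0 ± 8.58 CPM in WT and 39.6 ± 9.30 in KO (SD, n = 4 each). Krt19, a type I keratin without a tail domain, was at 6.82 ± 3.26 and 5.95 ± 1.71 CPM. Krt20, an intestinal and urothelial keratin, was under 1 CPM in every library.

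Krt23, a type I keratin counted with the simple class, lay at 0.886, 1.72, 1.47 and 1.58 CPM in the WT libraries and at 0.492, 0.826, 0.875 and 0.676 CPM in the KO libraries, a separation of 0.886 in WT 2 from 0.875 in KO 4. Its log2 fold change was -0.97 (SE 0.32, adjusted p = 0.206). Beside Krt42, the tested keratins outside the classes were Krt80, Krt222 and Krt90, which had log2 fold changes of 0.33, 0.07 and 0.56 with overlapping groups. Krt80 lies under an antisense gene that had 6.08% of its number of reads.

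**Figure D4:**
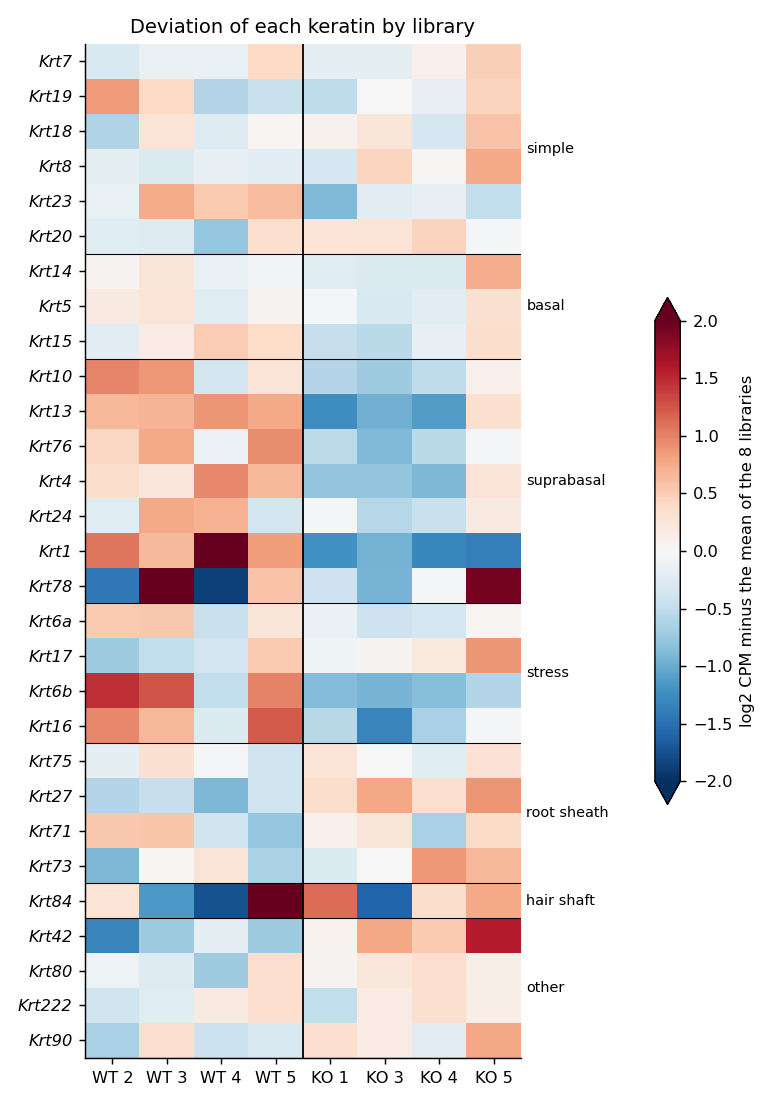
Deviation of each tested keratin in each library, as log2 CPM minus the mean of the 8 libraries, red above and blue below it, with the colour scale ending at 2 to either side and a line between WT and KO. In KO 5 most keratins are redder than in the other KO libraries, and in WT 4 Krt6a, Krt6b, Krt16, Krt10 and Krt76 are bluer than in the other WT libraries.

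Some libraries stood high or low for many keratins. KO 5 was the highest KO library for 22 of 29 tested keratins, among them Krt14, Krt5, Krt13, Krt4 and Krt42, and the lowest for Krt1 and Krt20. WT 4 was the lowest WT library for 13, among them Krt6a, Krt6b, Krt16, Krt10 and Krt76, and the highest for 7, among them Krt1, Krt4 and Krt13. WT 4 was also the WT library with the least Xist. With Xist as a covariate, an alternative chosen after seeing the data, the log2 fold changes of Krt6b, Krt16, Krt10, Krt76 and Krt42 were -0.59, -0.65, -0.24, -0.60 and 0.78, nearer to 0 than without it. Those of Krt1, Krt13 and Krt4 were -3.46, -1.90 and -1.71, further from 0, and Krt1 alone passed. Among the WT libraries only WT 4 had Xist within the KO range. This fit therefore rests largely on WT 4 and can hardly separate Xist from genotype. Within the epidermal pair, WT 4 held the highest WT level of Krt1 and the lowest of Krt10. The number of keratins past the threshold was 2 without WT 4 (Krt1 and Krt6b), 2 without KO 5 (Krt4 and Krt13), 1 without WT 5 (Krt1) and 0 without any other single library. Without KO 1 and KO 5 together it was 1, Krt13.

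Keratin genes lie in 2 clusters, 27 of them on chromosome 11 from 99232761 to 100269871 and 26 on chromosome 15 from 101347444 to 102032027. The chromosome 11 cluster holds type I keratins, and the chromosome 15 cluster holds type II keratins and Krt18. In the first, 7 of 13 tested members were lower and the median log2 fold change was -0.20, and in the second 9 of 16 were lower and it was -0.07. Directions were mixed between some neighbours: Krt16 (-1.32), Krt17 (0.49) and Krt42 (1.52) lie next to each other. Krt6b (-1.78), Krt6a (-0.47) and Krt5 (-0.12) form another run, in which all were lower, by differing amounts. Krt1, Krt76 and Krt4, all lower by over 1 on the log2 scale, lie close together on chromosome 15, with the untested Krt77 among them.

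**Figure D5:**
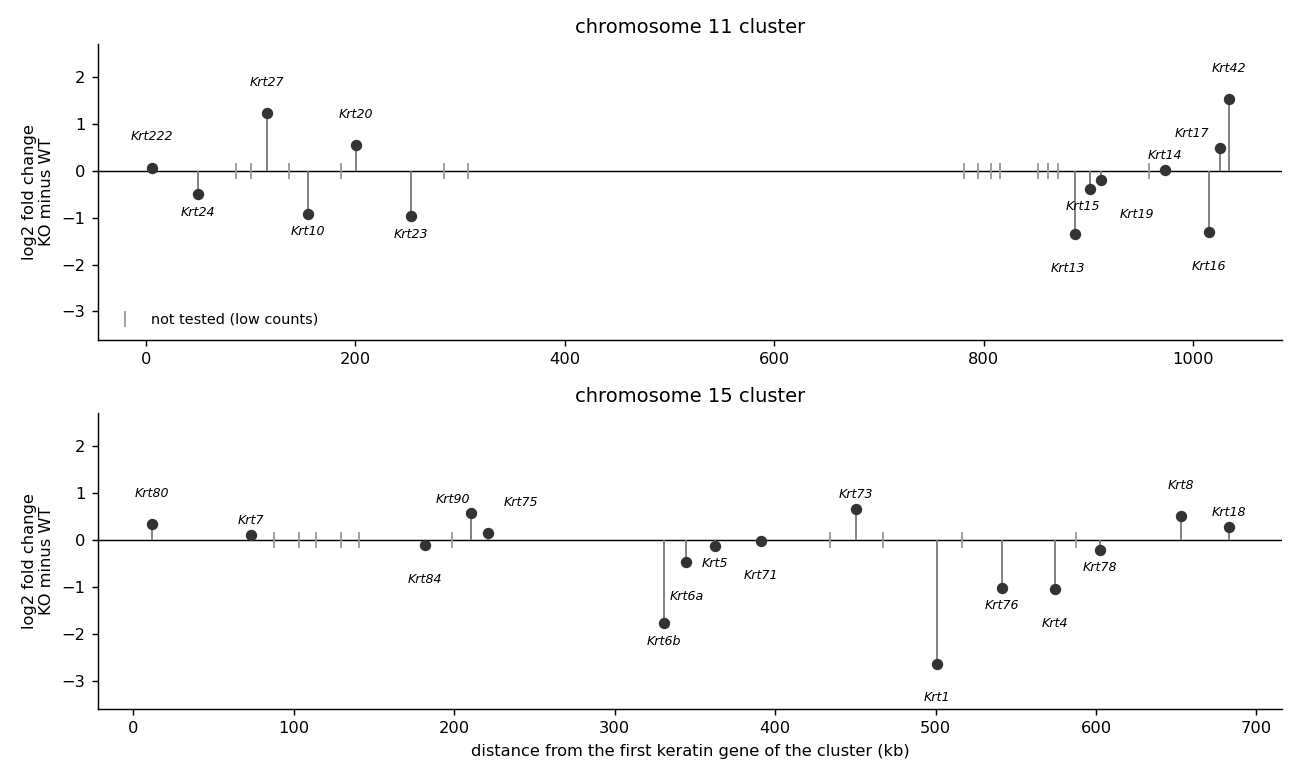
Log2 fold change of the tested keratins along each cluster, KO minus WT, against the distance from its first keratin in kb, with grey ticks for untested keratins. Members above and below 0 lie side by side on both chromosomes, and Krt42 at 1.52 stands close to Krt16 at -1.32.

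Summed per kilobase, type I keratins stood at 5063 ± 574 CPM per kilobase in WT and 5129 ± 1995 in KO, and type II keratins at 3343 ± 545 and 2973 ± 559 (SD, n = 4 each). The ratio of type I to type II was 1.40 to 1.71 in WT and 1.40 to 2.16 in KO. KO 5, at 2.16, was the library furthest from the others. Without Krt5 and Krt14 the ratio was 0.808, 0.859, 1.33 and 1.29 in WT and 1.16, 1.46, 1.54 and 1.89 in KO, and the groups overlapped.

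Genes that act on keratin filaments were read beside the keratins, from lists written with the keratin results known. Of 14 genes that tie keratins to desmosomes, hemidesmosomes and the cornified envelope, 4 were higher and 10 lower, their median log2 change was -0.20, and 0 passed in edgeR (2 higher and 2 lower when p was left unadjusted). When p was left unadjusted in edgeR, 8.7% of all genes were higher and 6.98% lower. DESeq2 called 2 of the 14 higher, Evpl and Itgb4, where it called 1.88% of all genes higher. To these voom added Eppk1, which was lower, where it called 4.34% of all genes higher and 2.28% lower. Evpl, which encodes envoplakin, had a log2 fold change of 0.64 (SE 0.18, adjusted p = 0.159). Itgb4, an integrin of hemidesmosomes, lay at 199, 184, 162 and 189 CPM in the WT libraries and at 249, 237, 238 and 222 CPM in the KO libraries, with no overlap (log2 fold change 0.37, SE 0.11, adjusted p = 0.176). For its partner Itga6 each KO library was below each WT library, the nearest being WT 4 at 907 and KO 3 at 904 CPM (log2 fold change -0.29, SE 0.15, adjusted p = 0.359). Over all genes, 5.5% had each KO library above each WT library and 5.44% had each below. Itga6 and Dsp are named after their values were seen. Dsp, the desmoplakin that anchors keratins at desmosomes, was at -0.18 (SE 0.20).

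Of 10 regulators of the keratin network 5 were higher and 5 lower, with a median of 0.0045, and 0 passed in edgeR, also at an unadjusted p of 0.05, in DESeq2 or in voom. Fam83h, an amelogenesis imperfecta gene whose protein recruits casein kinase 1 to keratin filaments, lay at 80.8, 85.1, 73.4 and 73.1 CPM in the WT libraries and at 80.8, 83.0, 69.98 and 87.2 CPM in the KO libraries (log2 fold change 0.04, SE 0.11). Csnk1a1, that kinase, stood at -0.15 (SE 0.11), and Stub1, a ubiquitin ligase, at 0.35 (SE 0.17).

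Of 17 transcription factors of stratified epithelia 16 were tested, 9 higher and 7 lower, with a median of 0.01. In edgeR, DESeq2 and voom 0 passed. At an unadjusted p of 0.05 in edgeR 1 was higher and 2 were lower, beside 8.7% and 6.98% of all genes. Ehf, an ETS factor of epithelia, had a log2 fold change of -0.37 (SE 0.16, adjusted p = 0.289), and Klf5, a Krüppel-like factor of basal cells, of 0.35 (SE 0.15, adjusted p = 0.304). Trp63, the p63 gene that basal epithelial cells depend on, was at -0.04 (SE 0.14) and is named after its value was seen. Of 16 other intermediate filament genes 15 were tested, 10 higher and 5 lower, with a median of 0.13. In edgeR 0 passed (1 each way at an unadjusted p of 0.05), and in DESeq2 0. With voom 2 were called higher, Bfsp1 and Vim, where it called 4.34% of all genes higher. Bfsp1 and Bfsp2, the beaded filament genes known from the lens, stood at log2 fold changes of 0.67 (SE 0.23) and -0.77 (SE 0.30), with means under 5 CPM.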

How the data were processed

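The authors deposited 1 table of counts, whole reads per Ensembl gene and library, not normalised, with gene positions and lengths. The submitters' processing notes name CASAVA and mm39, but the positions are those of GRCm38: all 53 keratins lie where GENCODE M21 has them. Not given in the sources used here are the aligner, the read counter and the strandedness. PolyA RNA was sequenced, per the labels' protocols.

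Counts were filtered with filterByExpr (minimum count 10, minimum total 15), scaled by TMM (CPM) and tested with the quasi-likelihood test of edgeR (version 4.0.16 in R 4.3.3, robust dispersion), two-sided, KO against WT, no covariate, Benjamini-Hochberg adjusted over all 16205 genes, threshold 0.05. DESeq2 1.42.0, limma 3.58.1 voom, other scalings and filters, a replicate block and each library left out were alternatives. Levels per kilobase use the deposited gene lengths. The edgeR fit was tested on simulated counts. Named were keratins past the threshold, per class the 4 most abundant and the 3 with the smallest p, the keratin pairs, and of other lists members past the threshold or the 2 with the smallest p. Cell type markers did not all follow this rule: Ambn, Col1a1, Krtdap and Lor, among others, were named outside it. Members and lists were chosen with earlier results of these data known.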

Additional observations from a re-analysis of the deposited data

Results flagged for a closer look

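Each group of 4 libraries was searched for a library whose gap to its nearest neighbour was above Dixon's 95% critical share of the group's range, in 58 groups, the WT and KO libraries for each of 29 tested keratins, of which chance alone marks about 1 in 20. There were 5 such values. KO 5 stood above the other KO libraries for Krt14, at 13265 CPM with the next at 6816, for Krt13, at 45.3 CPM with the next at 18.7, for Krt4, at 31.1 CPM with the next at 14.9, and for Krt78, at 2.60 CPM with the next at 0.598. WT 4 stood above the other WT libraries for Krt1, at 18.9 CPM with the next at 8.08.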

How the results depend on the processing

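The number of changed genes over all genes, 5, was 2 with library totals, 241 with no low-count filter, 465 with DESeq2, 1073 with voom, 15 with the GC and length correction, 1 with Xist as a covariate, 11 without KO 1 and KO 5, and 0 to 55 when 1 library was left out. The number of changed keratins, 1, was 2 with no filter (Krt1 and Krt27), 9 with DESeq2, 10 with voom, 4 with the GC and length correction (Krt1, Krt6b, Krt13 and Krt76), and 0 to 2 when 1 library was left out. The GC and length correction, the Xist covariate and the fit without KO 1 and KO 5 were chosen after seeing the data. Without WT 2, WT 3, KO 3 or KO 4, where 0 genes changed by edgeR, 1744, 1720, 3139 and 2622 genes had an unadjusted p under 0.05. Replicate numbers did not pair the libraries: deviations of WT 3 and KO 3, WT 4 and KO 4, and WT 5 and KO 5 correlated at -0.143, -0.0923 and -0.121. With a replicate block, over all libraries or over the shared numbers only, 1 gene and 0 keratins changed by edgeR (1088 and 1095 genes at an unadjusted p of 0.05). All 7 suprabasal keratins were lower in each setting that tested them, except that 6 were with either block, with the Xist covariate and without WT 3, KO 1 or KO 3. The 24 untested keratins had at most 77 reads each, and with no filter 0 of them passed in edgeR, also at an unadjusted p of 0.05. The median of the root sheath class was 0.68 with no filter, and with the Xist covariate that of the stress class was -0.25 and that of all tested keratins 0.078. The Xist covariate, hardly separable from genotype, also brought Krt6b to -0.59, Krt16 to -0.65, Krt10 to -0.24, Krt76 to -0.60 and Krt42 to 0.78. Some smaller fold changes turned sign. Krt14 was at -0.042 with library totals, -0.33 with voom, -0.19 with the GC and length correction, -0.060 with the Xist covariate and -0.31 without KO 1 and KO 5. With the Xist covariate Krt5 was at 0.066, Krt6a at 0.085, Krt19 at 0.33, Krt71 at 0.22, Krt84 at 1.22 and Krt222 at -0.11. With the replicate block Krt19 was at 0.29, Krt71 at 0.19 and Krt84 at 0.023 (all libraries) or 0.027 (shared numbers). With voom Krt75 was at -0.076 and Krt84 at 0.53, and without KO 1 and KO 5 Krt75 was at -0.056 and Krt7 at -0.022. When 1 library was left out, Krt14 ran from -0.30 to 0.11, Krt71 from -0.23 to 0.19, Krt84 from -0.48 to 1.14, Krt222 from -0.057 to 0.21, Krt7 from -0.068 to 0.27 and Krt19 from -0.39 to 0.11. The causes were not tested.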
